A study of Mus musculus with 10 samples.

Results

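The iron handling genes of the duodenum examined here were 9 genes of 24016 gene symbols in the transcription table: Cybrd1, Slc11a2, Slc46a1, Hmox1, Fth1, Ftl1, Heph, Slc40a1 and Tfrc. They were chosen by name for what they are known to do, as the symbols that precede the first bar in the table's annotation, and all 9 were found. The measure was nascent transcription, read by GRO-seq (global run-on sequencing), in which polymerases already engaged on genes are allowed to extend their RNA in isolated nuclei and the labelled RNA is sequenced. The organoids came from mouse duodenum and were grown in Matrigel, with EGF, Noggin and R-spondin in both media. ENRI, the medium for differentiation to enterocytes, added IWP-2, an inhibitor of Wnt secretion. WENRC, the medium for stem cells, added Wnt3A and CHIR-99021, which activates Wnt signalling. Each medium had 2 GRO-seq libraries, from mice that the titles call 1 and 2 in each medium alike. H3K27me3, a mark of repressed chromatin that the Polycomb complex PRC2 places on histone H3, came from 1 ChIP-seq library of ENRI and 1 of WENRC. Genotype, strain, age and time in each medium are not given in the sources used here.

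Duodenal enterocytes take up dietary iron at the brush border and pass it to the blood at the basolateral side. Ferric iron is reduced at the surface and carried in as ferrous iron, while heme enters by a separate route and is opened by heme oxygenase. Iron that is not exported is stored in ferritin and lost when the cell is shed. In the duodenum the oxygen-sensing factor HIF-2 alpha is known to raise transcription of the reductase, the importer and the exporter when iron is short. Ferritin and transferrin receptor are controlled largely through their mRNAs by iron regulatory proteins, a step that nascent transcription does not read.

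ENRI libraries stood above both WENRC libraries in 4 of the 9 genes, namely the ferroxidase Heph, the exporter Slc40a1, the heme and folate carrier Slc46a1 and the ferritin heavy chain Fth1. They stood below both in 3, namely the ferric reductase Cybrd1, the heme oxygenase Hmox1 and the transferrin receptor Tfrc. The importer Slc11a2 and the ferritin light chain Ftl1 overlapped between the media. Over all 11602 tested genes, 23.0% had both ENRI libraries above both WENRC libraries and 49.7% had both below, so the count of 3 lower genes is no more than the background gives. Levels are in RPKM, the reads over the whole transcript span, introns included, scaled to the length of the span and to the column's total. Fitted changes are differences in log2 of RPKM plus 0.5, ENRI minus WENRC. A gene passed the test at a Benjamini-Hochberg adjusted p under 0.05 in limma over all tested genes.

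None of the 9 genes passed that test, which called 0.0603% of tested genes higher and 0.0862% lower in ENRI. At an unadjusted p under 0.05 the same fit counted 4 members higher (Slc40a1, Heph, Fth1 and Slc46a1) and 2 lower (Cybrd1 and Hmox1), against 12.0% and 26.9% of tested genes. None of the 8 tested enterocyte markers passed either, although the summed level of their list was 558 and 795 RPKM in ENRI against 40.0 and 16.0 RPKM in WENRC. In the authors' deposited table, at an FDR under 0.05, 3 members were higher in ENRI (Heph, Slc46a1 and Fth1) and 1 was lower (Cybrd1), where 8.16% and 4.57% of tested genes were called. DESeq2 on the recovered reads called those 4 and Slc40a1, against backgrounds of 14.7% higher and 8.89% lower. The median of all tested genes was -0.21, with 65.7% of genes lower in ENRI. Relative to that median the members' changes were 1.30 for Fth1, 1.27 for Slc46a1, 1.14 for Heph, 0.77 for Slc40a1, 0.18 for Ftl1, 0.12 for Slc11a2, -0.56 for Tfrc, -0.73 for Hmox1 and -0.93 for Cybrd1, and the changes given below are as fitted. edgeR's quasi-likelihood test on the recovered reads called Heph and Slc46a1 higher, with backgrounds of 5.6% higher and 2.84% lower, and with the replicate block it called the same 2 against 5.32% and 2.72%. Without the ENRI library of batch 1, when 15.6% of tested genes were called higher and 34.3% lower, limma called Heph (1.01, adjusted p = 0.0135), Slc46a1 (1.09, adjusted p = 0.0139), Cybrd1 (-1.29, adjusted p = 0.0353) and Hmox1 (-1.39, adjusted p = 0.0135). Without the ENRI library of batch 2, when 2.58% were called higher and 3.33% lower, it called Slc46a1 alone among the members (1.03, adjusted p = 0.0499).

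**Figure D1:**
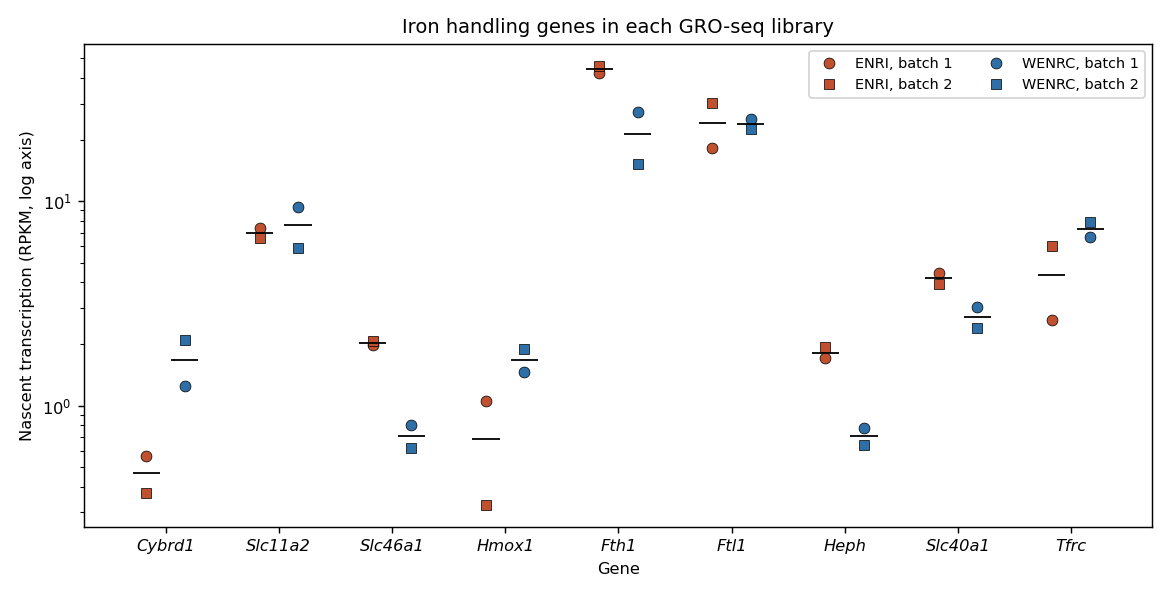
Level of each gene (RPKM, log axis) in the 4 GRO-seq libraries, ENRI left of WENRC, with circles for batch 1, squares for batch 2 and a bar at the mean. Heph and Slc46a1 have ENRI libraries at 1.71 and 1.93 RPKM and at 1.97 and 2.07 RPKM, above both WENRC libraries, while Slc11a2 and Ftl1 overlap between the media.

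Reads over 1 transcript per gene were 18.4M and 10.2M in ENRI and 16.3M and 5.87M in WENRC (batch 1 and batch 2 of the file header in each medium). All 7 epithelial markers were present in every library, 4 higher and 3 lower in ENRI and none past the limma test, for example Epcam (means of 14.5 RPKM in ENRI and 11.9 RPKM in WENRC) and Cdx2 (means of 5.49 RPKM in ENRI and 7.89 RPKM in WENRC). The summed level of 10 macrophage and other immune markers was 10.2 and 6.94 RPKM in ENRI and 17.3 and 19.7 RPKM in WENRC. Most of it was Cd68, a lysosomal protein that is not confined to macrophages (means of 5.36 RPKM in ENRI and 14.8 RPKM in WENRC), while Csf1r had 0.478 and 0.243 RPKM in ENRI against 0.459 and 0.482 RPKM in WENRC. Cd14 had 4.37 and 0.941 RPKM in ENRI against 3.58 and 2.41 RPKM in WENRC. Ptprc and Emr1 were at most 0.0639 RPKM in any library and C1qb was at 0 in all 4. The part of these markers in the members' values was not tested. Of 8 erythroid markers, Hbb-b1 and Hbb-b2 were at 0 in every library, and the list summed to 1.17 and 1.24 RPKM in ENRI against 1.98 and 1.98 RPKM in WENRC. The 9 mesenchymal and endothelial markers summed to 0.953 and 0.885 RPKM in ENRI against 1.51 and 1.06 RPKM in WENRC. Most of the erythroid sum was Klf1 (means of 1.00 RPKM in ENRI and 1.27 RPKM in WENRC). Most of the mesenchymal and endothelial sum was Acta2, which overlapped between the media. Acta2 had 0.838 and 0.615 RPKM in ENRI against 1.41 and 0.806 RPKM in WENRC. The libraries are bulk samples, so fewer cells of a type and less RNA per cell cannot be told apart.

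Cybrd1, also called duodenal cytochrome b, reduces ferric to ferrous iron at the brush border. It lies at chr2:70956111-70980983 on the plus strand (mm9, NM_028593). Its level was 0.567 and 0.372 RPKM in ENRI (411 and 146 reads) against 1.24 and 2.09 RPKM in WENRC (798 and 481 reads). Both ENRI libraries lay below both WENRC libraries, and the gap was wider in batch 2, where ENRI had 0.178 of the WENRC level, than in batch 1, where it had 0.457. Means were 0.470 ± 0.138 RPKM in ENRI and 1.67 ± 0.601 RPKM in WENRC (SD, n = 2 each), 3.55-fold lower in ENRI. In the fit the change was -1.14 ± 0.24 (SE, limma, adjusted p = 0.0623), and the authors' deposited table gives -1.56 at an FDR of 0.0158. The gene next to it upstream, Dcaf17, 18.9 kb away, averaged 0.743 RPKM in ENRI and 1.36 RPKM in WENRC.

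Cybrd1 was the only member with H3K27me3 called within 2 kb of its start, and it was called there in ENRI alone. Broad regions reached that window at 1 of the 9 members in ENRI and at 0 of 9 in WENRC, where 8.76% and 10.5% of all 24016 genes had one. The ENRI broad region ran from 530 bases before the start to 470 bases after it (chr2:70955581-70956581, mm9). It held 12.1 tags after scaling to the fixed total of the authors' list, from a library of 29.8M tags, at 4.10-fold over input DNA, where the authors required 4-fold and 9.11% of ENRI broad regions had that fold or less. Its best window held 34 tags where 32 were required. The narrow list, called from the same library with a 500 bp window, had a region from 491 bases before the start to 9 bases after it, at 8.19-fold and 23 tags. That fold was as high as or higher than in 88.7% of ENRI narrow regions.

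In WENRC the nearest broad region to the Cybrd1 start was 72.9 kb away. A narrow WENRC region lay inside the gene, 16.9 kb after the start, at 4.01-fold. The lists give called regions only, so the WENRC tag count at the Cybrd1 start is unknown and the difference between media was not tested. The promoter count of 1 member in ENRI and 0 in WENRC was the same with narrow regions. It was also the same for broad regions with windows of 1 kb or 5 kb and over the whole transcript. The ENRI regions cross the Cybrd1 start, so none of these windows could lose them, and this likeness is no separate check. Within 2 kb, 19.6% of all genes had a narrow region in ENRI and 17.8% in WENRC. Broad regions gave 8.04% and 9.89% at 1 kb, 10.4% and 11.8% at 5 kb and 12.3% and 12.9% over the whole transcript. Among all tested genes, 144 had a broad region at the promoter in ENRI only, and 121 of them (84.0%) had a lower fitted level in ENRI, with a median change of -0.62, beside 65.7% and -0.21 over all tested genes. Of all genes, 640 were marked in ENRI only, and those without at least 0.5 RPKM in 2 libraries are left out of the 144. A gene can pass that filter through the 2 WENRC libraries alone, which by itself favours a lower level in ENRI. Cybrd1 is itself 1 of the 144, and promoters marked in WENRC only were not examined in this way. These shares therefore cannot show a link between the mark and the level, and their difference was not tested.

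The 250 bases before the Cybrd1 start (RefSeq, GRCm38.p6, chr2:71117804-71118053, plus strand) are shown because the ENRI regions extend over them. The transcript spans 24873 bases in that build as in mm9. Capitals mark GC boxes (GGGCGG on either strand), the site bound by SP1 family factors.
Cybrd1: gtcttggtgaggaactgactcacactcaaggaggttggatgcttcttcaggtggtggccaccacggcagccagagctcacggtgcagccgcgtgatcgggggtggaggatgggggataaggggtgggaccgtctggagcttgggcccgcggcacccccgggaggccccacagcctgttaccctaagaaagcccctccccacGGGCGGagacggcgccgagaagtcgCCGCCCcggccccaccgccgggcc
It held 19 CG dinucleotides. Of 32851 promoter windows of that length 19.7% held as many or more, and the median was 6. It held 2 GC boxes, and 32.7% of promoter windows hold at least 1. Neither the HIF core ACGTG nor the antioxidant response core TGACNNNGC occurred on either strand, and they occur in 16.6% and 10.2% of windows.

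**Figure D2:**
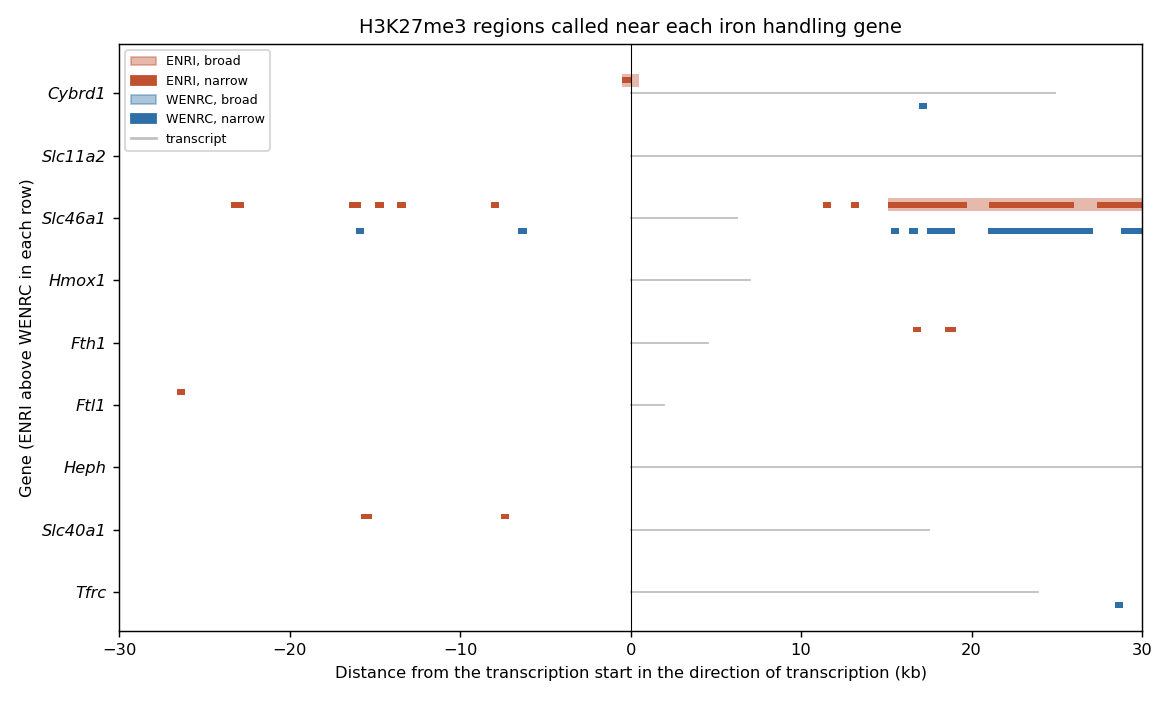
H3K27me3 regions within 30 kb of each start, by distance from the start in the direction of transcription (kb), ENRI above WENRC in each row, with pale bars for broad and dark bars for narrow regions and a grey line for the transcript. Cybrd1 has ENRI regions across its start and 1 narrow WENRC region 16.9 kb into the gene, and the cluster of regions beyond Slc46a1 is present in both media in the narrow lists.

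Slc11a2 encodes DMT1, the importer of ferrous iron at the brush border, and lies at chr15:100218331-100253486 on the minus strand (NM_008732). It had 7.37 and 6.60 RPKM in ENRI against 9.34 and 5.89 RPKM in WENRC. The ENRI values lay between the WENRC values, and ENRI was lower in batch 1 and higher in batch 2. Means were 6.98 ± 0.544 RPKM in ENRI and 7.61 ± 2.44 RPKM in WENRC (SD, n = 2 each). The fitted change was -0.09 (95% interval -0.87 to 0.70, limma, adjusted p = 0.844), and its sign turned under median centring (0.061). A shorter transcript, NM_001146161, had 6.41 RPKM in ENRI and 6.80 RPKM in WENRC. Gm5475, which starts 138 bases from the Slc11a2 start on the other strand, averaged 2.53 RPKM in ENRI and 2.76 RPKM in WENRC.

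Slc46a1 encodes the proton-coupled carrier of folate, first described as a heme carrier, and lies at chr11:78279203-78285447 on the plus strand (NM_026740). It had 1.97 and 2.07 RPKM in ENRI (359 and 204 reads) against 0.800 and 0.624 RPKM in WENRC (129 and 36 reads). ENRI was higher in both batches, by ratios of 2.47 and 3.32. Means were 2.02 ± 0.0676 RPKM in ENRI and 0.712 ± 0.124 RPKM in WENRC (SD, n = 2 each), a ratio of 2.84. The fitted change was 1.06 ± 0.13 (SE, limma, adjusted p = 0.0560), and 1.74 at an FDR of 0.00541 in the authors' deposited table. edgeR's quasi-likelihood test on the recovered reads gave 1.74 (adjusted p = 0.0424), and 1.74 with the replicate block (adjusted p = 0.0347). Sarm1, which ends 385 bases beyond Slc46a1 on the other strand, averaged 0.300 RPKM in ENRI and 0.113 RPKM in WENRC, below the filter on low values. With the strand setting of the counting not given in the sources used here, reads of Slc46a1 and Sarm1 near their ends cannot be told apart.

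No H3K27me3 region lay within 2 kb of the Slc46a1 start. An ENRI broad region of 20470 bases began 15.1 kb after the start, outside the gene and over parts of Sarm1 and Vtn, at 4.3-fold over input. The nearest WENRC broad region was 275 kb away, but WENRC narrow regions covered much of the same stretch, the longest being 6212 bases at 4.71-fold. The longest ENRI narrow region there was 4986 bases at 5.42-fold. The mark was thus called in both media in the narrow lists and only in ENRI in the broad lists, and the difference in signal was not tested. The promoter of Slc46a1 (RefSeq, GRCm38.p6, chr11:78465451-78465700, plus strand) is also shown, with GC boxes in capitals.
Slc46a1: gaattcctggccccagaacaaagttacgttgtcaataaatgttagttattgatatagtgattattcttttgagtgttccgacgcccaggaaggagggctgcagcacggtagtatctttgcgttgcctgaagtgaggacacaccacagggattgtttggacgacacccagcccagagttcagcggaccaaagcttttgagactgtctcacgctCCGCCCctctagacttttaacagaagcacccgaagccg
It held 11 CG dinucleotides and 1 GC box, and neither the HIF core nor the antioxidant response core. Of all promoter windows, 35.6% held as many CG dinucleotides or more. Among the other members without the mark at the promoter, the 2 Tfrc windows held 25 and 23, the 2 Fth1 windows 21 and 3, and the Ftl1 window 17.

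Hmox1, heme oxygenase 1, opens heme and frees its iron, and it is induced by heme and oxidative stress. It lies at chr8:77617517-77624492 on the plus strand (NM_010442). It had 1.05 and 0.327 RPKM in ENRI (214 and 36 reads) against 1.46 and 1.89 RPKM in WENRC (264 and 122 reads). Both ENRI libraries were the lower ones, but by a ratio of 0.719 in batch 1 and 0.173 in batch 2. Means were 0.690 ± 0.514 RPKM in ENRI and 1.68 ± 0.302 RPKM in WENRC (SD, n = 2 each). In limma the change was -0.94 ± 0.34 (SE, limma, adjusted p = 0.125), and -1.21 at an FDR of 0.185 in the authors' deposited table. Without the ENRI library of batch 2 the change was -0.48 (adjusted p = 0.126) and without that of batch 1 it was -1.39 (adjusted p = 0.0135). Hmox1 is also expressed by macrophages. Their markers did not move together. Cd68 was lower in ENRI in both batches, and Cd14 and Csf1r were lower in batch 2 and not in batch 1. Ptprc and Emr1 were higher in ENRI in both batches, in batch 2 at 0.0406 against 0.0125 RPKM and 0.0639 against 0.0269 RPKM. Cd163, Lyz2, Itgam and C1qa were lower in both batches, at no more than 0.137 RPKM, and C1qb was at 0. Ptprc, Emr1, Cd163, Lyz2, Itgam and C1qa all overlapped between the media. C1qa held 1 read in every library, so its direction comes from the scaling alone. The part of these markers in the Hmox1 values was not tested. The next gene downstream, Mcm5, 8.9 kb away on the same strand, averaged 0.50 RPKM in ENRI and 1.56 RPKM in WENRC.

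Fth1, the heavy chain of ferritin with its ferroxidase centre, was the most transcribed member in ENRI. Its longest transcript is the noncoding NR_073181 (chr19:10055090-10059601, plus strand). That transcript had 42.4 and 45.8 RPKM in ENRI against 27.4 and 15.2 RPKM in WENRC. ENRI was higher in both batches, by ratios of 1.55 and 3.02, and the WENRC libraries lay farther from each other than the ENRI libraries did. Means were 44.1 ± 2.43 RPKM in ENRI and 21.3 ± 8.60 RPKM in WENRC (SD, n = 2 each). The fitted change was 1.09 ± 0.40 (SE, limma, adjusted p = 0.125), and 1.35 at an FDR of 0.0260 in the authors' deposited table. Without the WENRC library of batch 2 the limma change was 0.68 (adjusted p = 0.584). The protein-coding transcript NM_010239, which starts 2046 bases later, averaged 73.7 ± 2.81 RPKM in ENRI and 36.1 ± 16.0 RPKM in WENRC (SD, n = 2 each), with a fitted change of 1.09 (limma, adjusted p = 0.148) and 1.35 at an FDR of 0.0286 in the authors' deposited table. The level of Fth1 therefore depended on the transcript taken. The coding transcript lies inside the longer one and held most of its reads, 5146 of 5572 in ENRI batch 1 and 564 of 634 in WENRC batch 2. The 2 changes thus come largely from the same reads, and their likeness is no separate check.

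Best1 ends 61 bases beyond Fth1 on the other strand and averaged 8.95 RPKM in ENRI and 3.94 RPKM in WENRC, a fitted change of 1.08. The strand setting of the counting is not given in the sources used here, so reads of these 2 genes near their shared end cannot be told apart. The promoter of the coding Fth1 transcript (RefSeq, GRCm38.p6, chr19:9982396-9982645, plus strand) is shown because it serves the member with the highest ENRI level. Its start lies 2046 bases after the other Fth1 start in both builds, and capitals again mark GC boxes.
Fth1: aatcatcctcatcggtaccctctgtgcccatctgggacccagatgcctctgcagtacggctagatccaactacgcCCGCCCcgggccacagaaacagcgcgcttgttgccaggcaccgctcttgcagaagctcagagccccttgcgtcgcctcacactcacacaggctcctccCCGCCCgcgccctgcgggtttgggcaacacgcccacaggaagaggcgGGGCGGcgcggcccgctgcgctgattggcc
It held 21 CG dinucleotides and 3 GC boxes, and neither the HIF core nor the antioxidant response core in these letters. The window before the noncoding start held 3 CG dinucleotides and no GC box.

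Ftl1, the light chain of ferritin, which aids iron core formation, lies at chr7:52713314-52715256 on the minus strand (NM_010240). It had 18.2 and 30.1 RPKM in ENRI against 25.2 and 22.6 RPKM in WENRC. The ENRI libraries lay on either side of the WENRC pair, lower in batch 1 and higher in batch 2. Means were 24.2 ± 8.41 RPKM in ENRI and 23.9 ± 1.85 RPKM in WENRC (SD, n = 2 each). The fitted change was -0.03 (95% interval -1.0 to 0.95, limma, adjusted p = 0.963), with the sign turned under median centring (0.12) and quantile normalization (0.013). Ferritin genes have processed pseudogene copies in the mouse genome, and how the authors treated reads that match several places is not given in the sources used here, so both ferritin levels are uncertain to that extent. Its promoter window in RefSeq held 17 CG dinucleotides and 1 GC box.

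The basolateral side is served by Heph and Slc40a1. Heph, hephaestin, oxidises ferrous iron as it leaves the cell, and its longest transcript lies at chrX:93650775-93769823 on the plus strand (NM_001159628). It had 1.71 and 1.93 RPKM in ENRI (5914 and 3626 reads) against 0.780 and 0.644 RPKM in WENRC (2400 and 709 reads). ENRI was higher in both batches, by ratios of 2.19 and 3.00. Means were 1.82 ± 0.158 RPKM in ENRI and 0.712 ± 0.0962 RPKM in WENRC (SD, n = 2 each), a ratio of 2.55. The fitted change was 0.94 ± 0.13 (SE, limma, adjusted p = 0.0560), and 1.60 at an FDR of 0.00274 in the authors' deposited table. edgeR's quasi-likelihood test on the recovered reads gave 1.60 (adjusted p = 0.0424), and 1.60 with the replicate block (adjusted p = 0.0417). The other 3 deposited Heph transcripts had ratios of 2.54, 2.56 and 2.61. They have the same span or lie inside it, so these ratios come largely from the same reads and are no separate check.

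Slc40a1 encodes ferroportin, the known iron exporter of mammalian cells and the target of hepcidin, and lies at chr1:45964915-45982439 on the minus strand (NM_016917). It had 4.46 and 3.95 RPKM in ENRI (2275 and 1093 reads) against 3.02 and 2.39 RPKM in WENRC (1367 and 388 reads). Both ENRI libraries were above both WENRC libraries, and the batch ratios of 1.48 and 1.65 were closer to each other than those of the other 6 members whose media did not overlap. Means were 4.20 ± 0.358 RPKM in ENRI and 2.71 ± 0.441 RPKM in WENRC (SD, n = 2 each), a ratio of 1.55. By limma it differed by 0.56 ± 0.19 (SE, adjusted p = 0.108), and 0.89 at an FDR of 0.136 in the authors' deposited table. DESeq2 gave 0.91 (adjusted p = 0.00631), and the other alternatives of this fit did not call it. Its neighbour Wdr75, 84.5 kb away, averaged 0.544 RPKM in ENRI and 1.36 RPKM in WENRC.

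Tfrc, the transferrin receptor, brings in iron from the blood side and is a usual mark of growing cells. It lies at chr16:32608982-32632880 on the plus strand (NM_011638). It had 2.63 and 6.06 RPKM in ENRI against 6.67 and 7.87 RPKM in WENRC. Both ENRI libraries were the lower ones, and the ENRI library of batch 2 lay nearer to the WENRC libraries than to the other ENRI library. Means were 4.34 ± 2.42 RPKM in ENRI and 7.27 ± 0.844 RPKM in WENRC (SD, n = 2 each). By limma it differed by -0.77 ± 0.41 (SE, adjusted p = 0.227), and -0.62 at an FDR of 0.445 in the authors' deposited table. Without the ENRI library of batch 1 the limma change was -0.24 (adjusted p = 0.382), and without that of batch 2 it was -1.31 (adjusted p = 0.0514). Of the 2 Tfrc windows in RefSeq, 1 held the HIF core ACGTG, the only such match among the 7 windows of the 5 members in the table. Of all 32851 windows 16.6% hold it, and Slc40a1, Slc11a2, Heph and Hmox1 had no window to read.

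**Figure D3:**
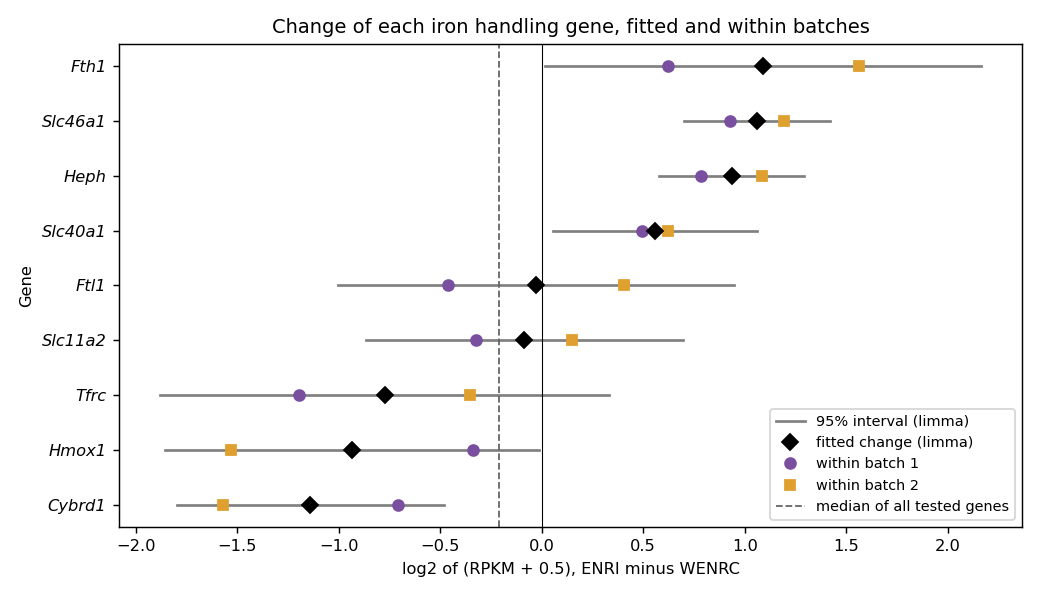
Change of each gene in log2 of RPKM plus 0.5, ENRI minus WENRC, with diamonds for the limma fit, grey bars for its 95% interval, circles and squares for batches 1 and 2 and a dashed line at the median of all tested genes (-0.21). Batches 1 and 2 fall on opposite sides of 0 for Ftl1 and Slc11a2 and on the same side for the other 7 genes.

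Ranked by level per length in ENRI, the genes ran Fth1, Ftl1, Slc11a2, Tfrc, Slc40a1, Slc46a1, Heph, Hmox1 and Cybrd1. The libraries of Tfrc and Slc40a1 overlapped, as did those of Hmox1 and Cybrd1, while the other neighbours in the order did not. In WENRC the order was Ftl1, Fth1, Slc11a2, Tfrc, Slc40a1, Hmox1, Cybrd1, Heph and Slc46a1. There the libraries of Ftl1 and Fth1, of Slc11a2 and Tfrc, of Hmox1 and Cybrd1 and of Heph and Slc46a1 overlapped. Heph and Slc46a1 thus stood last in WENRC and above Hmox1 and Cybrd1 in ENRI. Against all tested genes, the ENRI mean of Cybrd1 was above that of 11.0% of genes and its WENRC mean above that of 54.8%. Heph stood above 62.8% of genes in ENRI and 14.3% in WENRC, and Slc46a1 above 67.1% in ENRI and 14.2% in WENRC. Fth1 and Ftl1 stood above 97.9% or more of genes in each medium.

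Within 30 kb of the 9 starts there were 2 broad and 16 narrow regions in ENRI and 0 broad and 9 narrow regions in WENRC, and those of ENRI belonged to 5 members and those of WENRC to 3. Slc46a1 alone held 10 of the 16 narrow regions in ENRI and 7 of the 9 in WENRC. Over all 24016 genes, 22.5% had a broad region within that distance in ENRI and 22.4% in WENRC, and 50.5% had a narrow region in ENRI and 43.9% in WENRC. Slc40a1 had 2 narrow ENRI regions upstream, the nearer ending 7122 bases before the start at 4.10-fold. Fth1 had 2 narrow ENRI regions beyond its end, at 9.10-fold and 7.89-fold, and Ftl1 had 1 upstream at 6.07-fold. Tfrc had 1 narrow WENRC region 28.4 kb after its start at 4.58-fold. Heph, Slc11a2 and Hmox1 had none within that distance in either medium, and the nearest WENRC broad region to the Heph start was 1690 kb away. The ENRI narrow list is longer than that of WENRC over the genome (55544 and 33499 regions), so counts of narrow regions are not matched between media.

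The genes whose values over the 4 libraries lay nearest to those of the iron importer, reductase and exporter were found by Euclidean distance between centred log2 values. For Slc40a1 they were Atp2b1, Atrn and Lor, at distances of 0.06, 0.07 and 0.07, and 1521 tested genes lay within 0.5. For Cybrd1 they were Gm13238, Tssc4 and Lage3, at 0.13, 0.14 and 0.16, with 619 genes within 0.5. For Slc11a2 they were Atp6v1f, 0610012G03Rik and Cyc1, at 0.04, 0.06 and 0.08, with 2671 genes within 0.5. Such a likeness over 4 libraries is shared by many genes.

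Genes of the wider pathway were read from 6 lists, in which no gene passed the limma test in either direction. The authors' deposited table called 3 of the 61 tested list genes higher and 3 lower (4.92% each), which is no more than the 8.16% higher and about the 4.57% lower of all tested genes. Of 12 tested genes of iron and oxygen sensing, 8 were higher and 4 lower in ENRI, with a median change of 0.16 against -0.21 over all genes. Ncoa4, which delivers ferritin to the lysosome, averaged 6.66 RPKM in ENRI and 4.99 RPKM in WENRC. The change of Hif1a was 0.44 ± 0.39 and that of the prolyl hydroxylase Egln3 was -0.34 ± 0.25 (SE, limma). Outside the rule for named genes, and chosen after their values were seen, Epas1 and Hif3a were called in the authors' deposited table. Epas1, which encodes HIF-2 alpha, had 0.739 and 1.23 RPKM in ENRI against 0.275 and 0.328 RPKM in WENRC, with 1.91 at an FDR of 0.000119 in the authors' deposited table and 0.87 ± 0.20 in limma (adjusted p = 0.0667). Hif3a had 0.265 and 0.290 RPKM in ENRI against 1.00 and 1.05 RPKM in WENRC, with -1.64 at an FDR of 0.00515 in the authors' deposited table.

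Of 8 tested genes among the other reductases, iron carriers and metal transporters, 2 were higher and 6 lower, with a median of -0.48. The iron chaperones Pcbp1 and Pcbp2 had changes of -0.58 ± 0.34 and -0.43 ± 0.18, and the zinc importer Slc39a4 had -0.05 ± 0.25 (SE, limma). Slc39a8 and Steap2, also chosen after their values were seen, were lower in the authors' deposited table (-1.21 at an FDR of 0.0303 and -1.76 at an FDR of 0.0397). Of the 8 tested genes of hepcidin and its regulators, 4 were higher and 4 lower, with a median of -0.03. Furin, which cleaves prohepcidin, had 0.46 ± 0.15 and the BMP receptor Bmpr1a -0.48 ± 0.14 (SE, limma).

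Of the 8 heme synthesis enzymes examined, 3 were higher and 5 lower, with a median of -0.20. Over all tested genes 65.7% were lower, with a median of -0.21. Alas1, the rate-limiting enzyme outside red cells, had 0.56 ± 0.17, and Cpox and Ppox, which act late in the route, had -0.39 ± 0.19 and -0.37 ± 0.17 (SE, limma). Of 7 tested genes of heme transport and breakdown, 4 were higher and 3 lower, with a median of 0.02, and 2 listed genes, Flvcr1 and Flvcr2, were not analysed here. Pgrmc1, a heme-binding membrane protein, had 0.74 ± 0.17 and Hmox2, the constitutive heme oxygenase, 0.04 ± 0.13 (SE, limma). Abcg2, an exporter of porphyrins chosen after its values were seen, had 0.861 and 0.927 RPKM in ENRI against 0.244 and 0.206 RPKM in WENRC, with 2.24 at an FDR of 2.89e-06 in the authors' deposited table. Of 18 tested genes of mitochondrial iron import and iron-sulfur assembly, 5 were higher and 13 lower, with a median of -0.18. That median was near the -0.21 of all tested genes. The chaperone Hspa9 had -0.89 ± 0.24 and the mitochondrial iron importer Slc25a28 0.71 ± 0.40 (SE, limma), and the other importer Slc25a37, chosen after its values were seen, had 1.39 at an FDR of 0.0176 in the authors' deposited table.

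**Figure D4:**
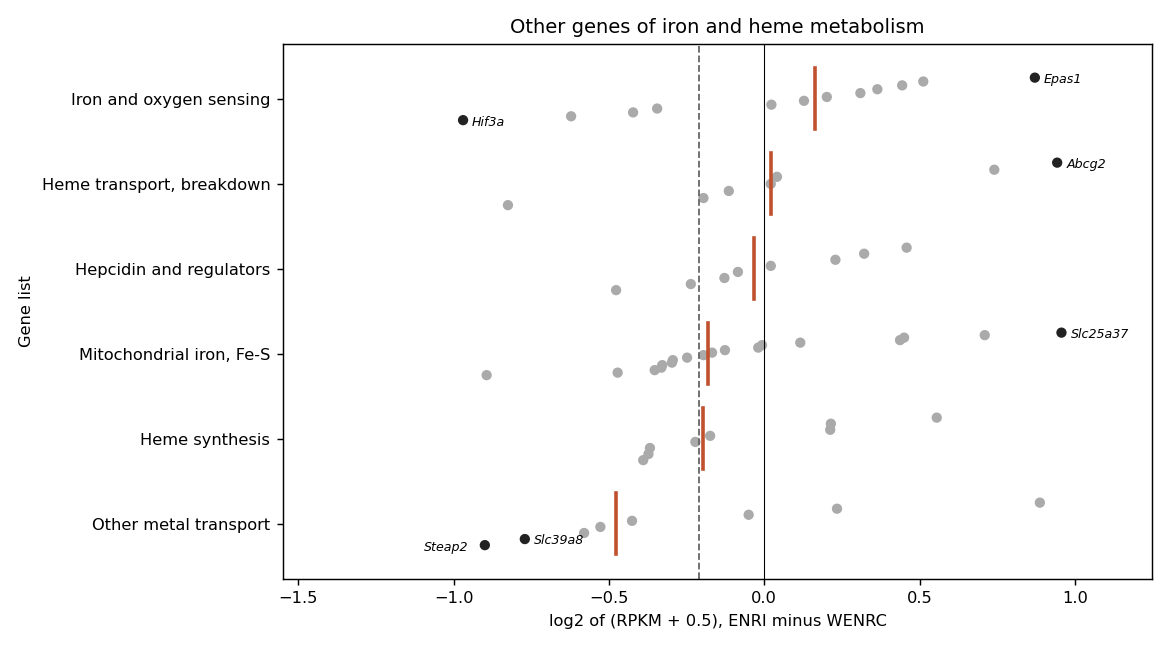
Change of each tested gene of 6 lists in log2 of RPKM plus 0.5, ENRI minus WENRC, with a red bar at each list's median and a dashed line at the median of all tested genes (-0.21). Named dark points are the 6 genes with an FDR under 0.05 in the authors' deposited table, 3 higher (Epas1, Abcg2 and Slc25a37) and 3 lower (Hif3a, Slc39a8 and Steap2), or 4.92% of 61 tested list genes each way, against 8.16% higher and 4.57% lower over all tested genes.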

How the data were processed

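The authors deposited GRO-seq signal, scaled reads for each RefSeq transcript (mm9). HOMER counted whole gene bodies without adjustment and edgeR compared the media with 2 batches, per the file headers, giving the deposited log2 fold changes and p-values with FDR. FastQC, Bowtie, Bowtie2, HOMER 4.3 and edgeR are named in the submitters' processing notes. Each signal column summed to 20.0M over 33022 transcripts, and 100% of low values were whole multiples of 1 step (tolerance 0.1), which gave back the read counts. The 4 other per-sample columns were not used. A column carries its medium and batch but no mouse.

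Per the file headers, the authors called H3K27me3 regions separately for ENRI and WENRC, with that medium's input DNA as control. The deposited signal is tags scaled to a fixed total. The deposited fold is the ratio to input, and the deposited score counts the tags in a region's best window. Broad lists used windows of 1000 bp and a joining distance of 10000 bp, and narrow lists 500 bp and 1000 bp. Input DNA and H3 samples were not analysed here.

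RPKM was computed from the signal and the longest transcript of each symbol. Genes with at least 0.5 RPKM in 2 libraries (11602, all 9 members among them) were tested in limma 3.58.1 (R 4.3.3, mean trend, pseudocount of 0.5, no block), on code tested on simulated data. A fold on that scale understates the change of genes with low values. Same-numbered titles are the same mouse, which pairs the samples by label, and the block used the header's batch, whose libraries' deviations correlated at 0.0126. Alternatives were pseudocounts, filters, scalings, the block, DESeq2 1.42.0, edgeR 4.0.16, leaving out a library, other transcripts and other region limits. A promoter was marked by 1 bp of overlap within 2 kb of the start. Promoter letters came from RefSeq, which listed 5 of the 9 members, and their GRCm38.p6 coordinates were not mixed with mm9.

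The members, lists and rules were chosen with earlier results of these data known. Named genes were the members, up to 4 genes per list by mean RPKM, neighbours of members, and the 3 genes nearest to Slc40a1, Cybrd1 and Slc11a2, and the neighbours and list genes not given in the text are left out for length. An item of the pathway lists is not reported here. P-values measure only the spread between these libraries, and reads are not independent molecules, since the libraries were amplified.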

Additional observations from a re-analysis of the deposited data

How the results depend on the processing

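Over the alternatives, 101 of 131 pairs of a member and an alternative kept direction and side of the threshold and 18 came to pass it. The other 12 changed sign, for Slc11a2 under median centring (0.061), without the WENRC library of batch 1 (0.23), in edgeR without the block (0.12) and with it (0.16) and in DESeq2 (0.15), and for Ftl1 under median centring (0.12), quantile normalization (0.013), without the ENRI library of batch 1 (0.33) or the WENRC library of batch 1 (0.05), in edgeR without the block (0.27) and with it (0.21) and in DESeq2 (0.31). Leaving out 1 library gave -0.40 to 0.23 for Slc11a2 and -0.38 to 0.33 for Ftl1. The cause was not tested. Alternatives with another transcript of Slc11a2, Heph or Fth1 reuse largely the same reads, so they add little to the count of pairs that kept direction.

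The limma count of 17 genes was 1 with a pseudocount of 0.1, 0 without a filter, 1491 with a filter of 10 reads, 929 with quantile normalization, 0 with the replicate block, 979 and 932 in edgeR without and with the block, and 2738 in DESeq2, and leaving out 1 library gave 0 to 5794. Where the count was 0, 5508 genes (no filter) and 3839 genes (block) had an unadjusted p under 0.05. Calls that were higher in ENRI were 41.2% of 17 calls by column totals and 58.3% of 12 with median centring, where few calls make the shares uncertain. They were 54.6% of 929 calls with quantile normalization and 66.4% of 979 in edgeR without the block. The count of 0 members past the test was 2 with the reads filter, quantile normalization and edgeR with or without the block (Heph and Slc46a1), 5 in DESeq2 and 0 to 4 with 1 library left out. The paired fit with the replicate block changed no other call of a member. The count of 0 pathway genes was 3 with the reads filter, 1 with quantile normalization, 4 in edgeR without or with the block, 13 in DESeq2 and 0 to 20 with 1 library left out. Those fits take a single remaining library to be as variable as the pair of the other medium. Of the 61 tested list genes, DESeq2 called 11 higher and 2 lower, where it called 14.7% and 8.89% of all tested genes. In edgeR without the block the list genes gave 3 higher and 1 lower, against 5.6% and 2.84% of all tested genes. The pathway counts thus rose along with the calls over all tested genes, and an excess over that background was not tested. Depth limits Slc46a1 and Hmox1 most, with 36 reads in 1 library each, and 1 ChIP library a medium leaves the H3K27me3 calls without a replicate check.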
